A study of Mus musculus with 16 samples.

Results

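The genes described here are 39 genes of myeloid cells and of leukocytes in general, taken by name from a list of growth factor receptors, signalling adaptors, cytoskeletal proteins, granule enzymes, oxidase subunits, transcription factors, complement subunits and membrane proteins. Each gene was represented by 1 probe set that carries no other gene symbol, the one with the highest mean log2 signal over all arrays. Such a probe set was found for 38 of the 39 genes, of 18193 genes with one on the array. Cebpe was not analysed here. The genes were listed by name and not by a threshold on measured values, though with earlier results of these data known. Of the 38 genes, 15 have more than 1 probe set.

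Myeloid cells are the granulocytes, monocytes and macrophages of the blood and tissues. They sense pathogens and immune complexes through surface receptors that signal by way of small adaptors such as DAP12 and the Fc receptor gamma chain, move by remodelling actin, and kill with granule enzymes and reactive oxygen. In the embryo the earliest of them arise in the yolk sac beside primitive erythroid cells and megakaryocytes, from mesoderm that also gives endothelium. Many of the signalling and cytoskeletal genes are shared by nearly all blood cells, whereas the granule and complement genes mark maturing granulocytes and macrophages.

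The study sorted CCE mouse embryonic stem cells, differentiated as embryoid bodies after removal of LIF, by antibodies to surface markers, and hybridised RNA to 16 Affymetrix mouse genome arrays, 2 for each of 8 populations. Per the methods, the duplicates came from separately conducted experiments, the stem cells had been kept on irradiated fibroblast feeders, and cells were fixed in ethanol and acetic acid before staining. VEGF-R2 (a VEGF receptor of early mesoderm) divided day 2.5 cells, CD41 (an early blood marker, integrin alpha IIb) divided day 3.5 cells, and CD144 (VE-cadherin, of endothelium) divided cells of both day 3.5 and day 6.5. Each population is thus the untreated progeny of a single line, and the labels give 1 marker for each. The methods place the CD41 positive and CD144 positive cells within the VEGF-R2 positive cells, and describe the CD41 negative cells as lacking VEGF-R2 also. A signal is the deposited MAS5 value, on a linear scale, with a median of 85.8 over all probe sets and arrays. Differences were computed on log2(signal + 6.03) and tested with limma over 45037 probe sets. A gene is called where its Benjamini-Hochberg adjusted p is under 0.05. Errors are standard errors of the fit unless named as SD, and fold changes on this scale understate those of dim genes.

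The positive and negative arrays differed beyond the sort. Over 18 control probe sets of spiked RNA, the geometric mean ran from 6481 to 11175 among arrays of positive cells, and from 2134 to 3022 among those of negative cells. Duplicates agreed less in the positive populations (Spearman coefficient 0.872 to 0.895) than in the negative ones (0.945 to 0.955). Comparisons of positive with negative cells therefore also set these sets of arrays against each other, which cannot be told apart from the sort, while comparisons among positive populations stay within 1 set. The sorting marker transcripts followed the labels. Itga2b, which encodes CD41, read 7523 and 5299 in CD41 positive and 227 and 195 in CD41 negative cells. Kdr, which encodes VEGF-R2, read 53.5 and 95.1 in CD41 negative cells but 1001 and 740 in CD144 negative cells of the same day, so the negative groups of day 3.5 differ in VEGF-R2.

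The myeloid and leukocyte genes were brightest in CD41 positive cells of day 3.5 and CD144 positive cells of day 6.5. In each of these populations 27 of the 38 genes were above the array median on both arrays, against 21 in CD144 positive cells of day 3.5, 15 in VEGF-R2 positive cells of day 2.5 and 9 to 11 in the negative populations. Of all probe sets, 43.6% to 47.9% met this measure. That share includes dimmer probe sets of the same gene, whereas the 38 genes are each shown by their brightest. The highest population mean lay in CD41 positive cells for 18 genes, in CD144 positive cells of day 6.5 for 16, in VEGF-R2 positive cells for 2, and in VEGF-R2 negative and CD144 positive day 3.5 cells for 1 each. How all probe sets divide by this measure was not computed. Some of these genes are dim, and 1 array can decide their place, as for Elane (11.7 and 112 in CD41 positive cells). The genes differed widely among themselves. Ctsg, Itgam, C1qa and C1qc exceeded the array median on none of the 16 arrays, whereas Csf2ra, Cyba, Cebpb, Coro1a, Lcp1, Fermt3 and Alox5ap exceeded it on all 16.

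**Figure D1:**
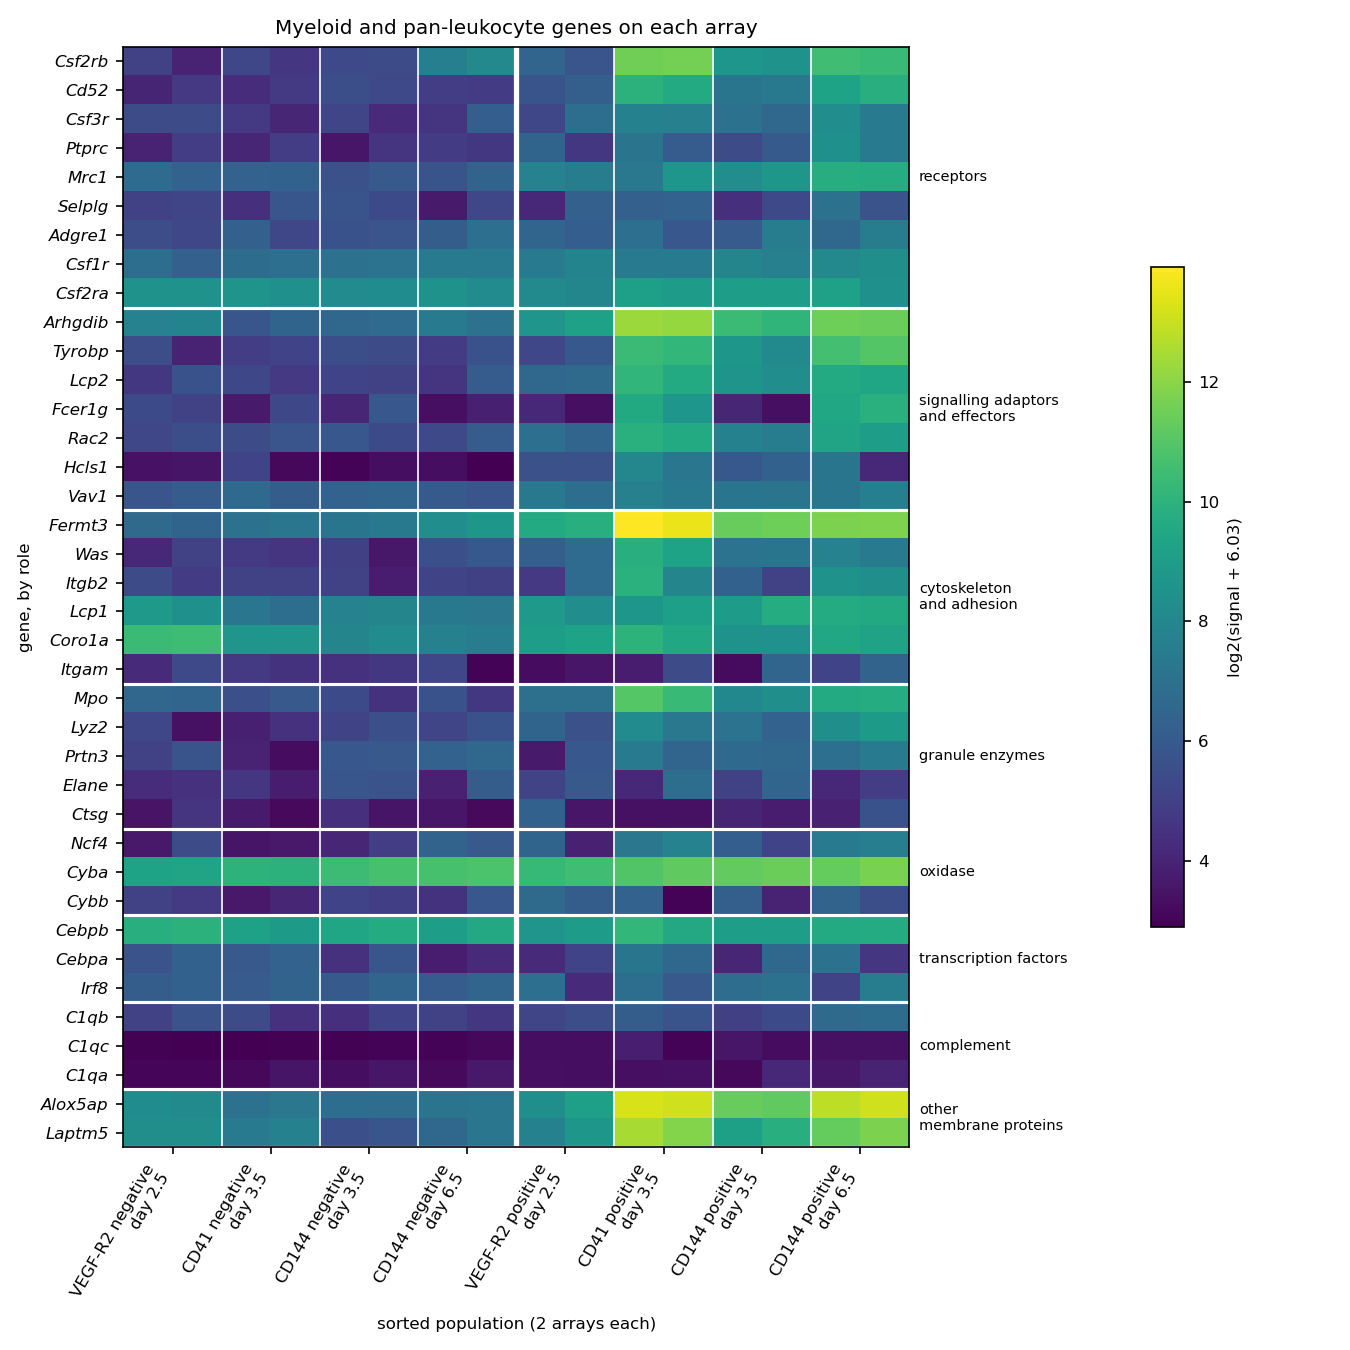
Heat map of log2(signal + 6.03) for the 38 genes (rows, grouped by role and ordered within a role by the CD41 difference) on the 16 arrays (columns, 2 per population, with negative populations left of the thick line and positive ones right of it). The brightest columns are those of CD41 positive day 3.5 and CD144 positive day 6.5 cells, where 27 genes each exceed the array median on both arrays, while the rows of C1qa and C1qc stay dark throughout.

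The sort by CD41 at day 3.5 asked which transcripts mark the first blood precursors. Of the 38 genes, 25 rose and 0 fell in cells with CD41 relative to those without. Over all 45037 probe sets, 13.5% were called higher and 15.8% lower. The median log2 difference was 1.99 for these genes and 0.10 for all probe sets. By role, all 7 signalling adaptors and effectors rose, as did 5 of 6 genes of cytoskeleton and adhesion, 5 of 9 receptors, 3 of 5 granule enzymes, 2 of 3 oxidase subunits, both other membrane proteins, 1 of 3 transcription factors and 0 of 3 complement subunits. In bulk RNA, fewer cells of a type and less RNA per cell cannot be told apart.

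Fermt3, which encodes the blood cell kindlin that activates integrins, differed about as much as Csf2rb, described below, and more than the other genes on this scale. It read 15457 and 12331 in CD41 positive cells and 122 and 146 in CD41 negative cells, a log2 difference of 6.63 ± 0.19 (adjusted p = 4.91e-13). The groups were far apart, and all 4 probe sets of Fermt3 were called higher, 3 of them by 6.63 to 6.93 and the other by 1.96. In the other positive populations Fermt3 read 2611 and 2825 (CD144, day 3.5), 3445 and 3522 (CD144, day 6.5) and 788 and 915 (VEGF-R2, day 2.5). It was thus above every negative array already in VEGF-R2 positive cells, where it exceeded VEGF-R2 negative cells (98.8 and 82.3) by 3.15 ± 0.19 (adjusted p = 1.35e-08).

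The 250 bases before the start of 4 genes of the CD41 pattern are printed because these genes rose together and differed most among the called genes with a single RefSeq start: Fermt3, Was, Lcp2 and Mpo. Sequences are those of RefSeq on GRCm38.p6, each on the strand of its gene and read 5′ to 3′. Capitals mark matches, on either strand, to short words known from binding sites of blood cell factors. The word GAGGAA is a core of the PU.1 type. The words of GATA factors were AGATAA and, with another base at its start, TGATAA. The word of RUNX factors was TGTGGT.
Fermt3, chr19:7019470-7019719, minus strand: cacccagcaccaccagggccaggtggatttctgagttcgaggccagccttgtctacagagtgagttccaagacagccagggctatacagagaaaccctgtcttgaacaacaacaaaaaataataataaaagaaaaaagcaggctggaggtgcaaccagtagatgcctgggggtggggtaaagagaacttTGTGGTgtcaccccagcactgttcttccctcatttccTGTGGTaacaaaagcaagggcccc
Was, chrX:8090492-8090741, minus strand: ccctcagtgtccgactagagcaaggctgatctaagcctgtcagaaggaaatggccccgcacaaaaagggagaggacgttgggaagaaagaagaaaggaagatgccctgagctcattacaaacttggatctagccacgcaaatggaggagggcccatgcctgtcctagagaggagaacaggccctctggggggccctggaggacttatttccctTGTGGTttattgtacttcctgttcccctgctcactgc
Lcp2, chr11:34046678-34046927, plus strand: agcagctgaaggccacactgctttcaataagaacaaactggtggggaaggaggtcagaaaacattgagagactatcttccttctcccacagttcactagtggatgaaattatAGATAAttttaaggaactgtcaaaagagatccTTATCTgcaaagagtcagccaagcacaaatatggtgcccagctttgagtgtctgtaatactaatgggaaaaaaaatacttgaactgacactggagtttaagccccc
Mpo, chr11:87793534-87793783, plus strand: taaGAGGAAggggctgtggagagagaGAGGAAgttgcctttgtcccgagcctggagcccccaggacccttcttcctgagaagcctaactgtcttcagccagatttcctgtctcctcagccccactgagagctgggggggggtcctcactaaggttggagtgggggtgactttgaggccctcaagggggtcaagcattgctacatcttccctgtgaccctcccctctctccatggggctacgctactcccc
No word occurs in all 4 windows. Fermt3 holds TGTGGT at 2 places, Was at 1, Lcp2 holds the GATA word at 2 places (once as its complement TTATCT) and Mpo holds GAGGAA at 2 places.

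A window was found for 27 of the 38 genes, several for a gene with more than 1 start. GAGGAA occurred in windows of 14 of them, against 25.9% of 27025 genes with a window. It was in 8 of the 18 called higher in CD41 positive cells and in 6 of the other 9. A GATA word occurred in a window of 6 genes (18.8% of all genes), 5 of them among the 18 called genes. TGTGGT occurred in those of 6 genes (15.9% of all genes), 3 among the called, and TTGCAA, part of the C/EBP site, in that of 1 (6.1% of all genes). The window of Fcer1g (chr1:171234350-171234599, minus strand) held none of the 4 words. A match describes letters, not binding.

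Csf2rb, the shared signalling chain of the GM-CSF, IL-3 and IL-5 receptors, differed most among the receptors. It read 2908 and 3089 in CD41 positive and 31.6 and 18.7 in CD41 negative cells, a log2 difference of 6.62 ± 0.37 (adjusted p = 1.35e-09). A second probe set gave 7.16. A near-identical copy, Csf2rb2, lies beside it in the genome, so its signal may be shared between the copies, and a probe set that names Csf2rb2 alone read 386 and 394 against 24.4 and 13.2. Csf2ra, the ligand-specific GM-CSF chain, was above the array median on every array (244 to 581) and its CD41 difference was 0.55 ± 0.23 (adjusted p = 0.0885).

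Cd52, a small GPI-anchored surface glycoprotein of leukocytes, read 995 and 798 in CD41 positive and 13.8 and 21.5 in CD41 negative cells (log2 difference 5.26 ± 0.45, adjusted p = 1.75e-07). Csf3r, the G-CSF receptor of neutrophils, read 208 and 202 against 21.0 and 10.9 (3.30 ± 0.67, adjusted p = 0.00111). Neither gene's groups overlapped. For this and later statements on overlap, the share of all probe sets was not computed. Ptprc, which encodes the pan-leukocyte phosphatase CD45, was called by a small margin. It read 134 and 61.8 against 11.1 and 24.2 (2.10 ± 0.74, adjusted p = 0.0419), so that only 1 CD41 positive array exceeded the array median. That call was lost in 8 of 25 alternative settings. The other probe set of Ptprc gave 0.33 and was not called (adjusted p = 0.821).

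Mrc1, the macrophage mannose receptor, which endothelium also makes, read 153 and 410 in CD41 positive and 77.3 and 74.6 in CD41 negative cells (1.65 ± 0.41, adjusted p = 0.00517). The call was lost without the second CD41 positive array and when only the compared groups were fitted. Csf1r, the receptor of the macrophage growth factor M-CSF, read 174 and 173 against 106 and 114. Its difference was 0.63 ± 0.31 (adjusted p = 0.146), although 1 of its other 2 probe sets was called (2.06, adjusted p = 0.0264). Adgre1 (F4/80 of macrophages) and Selplg (a selectin ligand) were not called, with differences of 0.66 and 1.17 and signals of at most 179 on any array.

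All 7 signalling genes rose in this sort. Tyrobp encodes DAP12, an adaptor of activating receptors on myeloid and natural killer cells, and read 1352 and 1158 in CD41 positive against 23.9 and 29.2 in CD41 negative cells (5.28 ± 0.48, adjusted p = 3.52e-07). Fcer1g, the Fc receptor gamma chain, read 757 and 412 against 6.84 and 32.6 (4.66 ± 0.73, adjusted p = 0.000109). Both were below the array median in the negative cells and well above it in the positive ones.

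Arhgdib read 4900 and 4667 against 50.8 and 80.8 (6.09 ± 0.24, adjusted p = 2.18e-11). Rac2, the blood cell Rac GTPase that drives actin and the oxidase, read 958 and 783 against 38.2 and 50.5 (4.12 ± 0.39, adjusted p = 5.28e-07). Lcp2, the SLP-76 scaffold of immune and platelet receptors, read 1129 and 799 against 32.8 and 20.7 (4.89 ± 0.48, adjusted p = 8.36e-07). No array of one group reached the other in these 3 genes. The other probe set of Lcp2 gave 1.64 and was not called (adjusted p = 0.0557). Hcls1, an actin regulator of blood cells, read 252 and 145 against 29.1 and 2.74 (3.49 ± 0.88, adjusted p = 0.0057). Vav1, an exchange factor for Rac, rose least, from 96.2 and 65.9 to 200 and 158 (1.10 ± 0.40, adjusted p = 0.0487), and its call was lost in 12 of 25 settings, though its other probe set gave 2.96.

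Of the cytoskeleton and adhesion genes, Was, the actin nucleation factor lost in Wiskott-Aldrich syndrome, read 877 and 624 in CD41 positive and 20.9 and 17.2 in CD41 negative cells (4.90 ± 0.55, adjusted p = 3.2e-06). Itgb2, the beta chain of leukocyte integrins, read 967 and 238 against 27.0 and 26.4 (3.90 ± 0.76, adjusted p = 0.00078). Its duplicates in CD41 positive cells lay far apart, yet both were above all negative arrays. Its partner Itgam (CD11b), the alpha chain of mature myeloid cells, read 7.81 and 38.0 against 21.4 and 17.0 and was not called. Lcp1, the actin bundler L-plastin, read 424 and 547 against 143 and 111 (1.88 ± 0.28, adjusted p = 6.45e-05). Its other probe set gave 0.90 and was not called (adjusted p = 0.135).

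The granule enzymes divided. Mpo, myeloperoxidase of the primary granules, read 2085 and 1261 in CD41 positive and 42.8 and 56.6 in CD41 negative cells (4.88 ± 0.40, adjusted p = 1.06e-07). Lyz2, the myeloid lysozyme, read 295 and 154 against 8.60 and 16.4 (3.60 ± 0.65, adjusted p = 0.000394), and Prtn3, proteinase 3, read 172 and 83.0 against 9.82 and 3.59 (3.35 ± 0.68, adjusted p = 0.00113). All 3 were higher on both positive arrays than on either negative array. Elane, neutrophil elastase, read 11.7 and 112 against 19.3 and 7.90, and Ctsg, cathepsin G, 4.36 and 4.62 against 7.02 and 3.04. Neither was called in any comparison made here.

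Of the NADPH oxidase, which makes superoxide, Cyba (p22phox) read 1955 and 2366 in CD41 positive and 1026 and 1002 in CD41 negative cells (1.08 ± 0.16, adjusted p = 6.94e-05), and it was above the array median on all 16 arrays. Ncf4 (p40phox) read 146 and 216 against 5.55 and 6.46 (3.94 ± 0.80, adjusted p = 0.00112). The catalytic subunit Cybb read 75.3 and 1.98 against 6.62 and 11.1 and was not called by any of its 3 probe sets. Alox5ap, the activating protein of 5-lipoxygenase in leukotriene synthesis, read 9618 and 8898 against 129 and 150 (6.0 ± 0.20, adjusted p = 3.48e-12). Laptm5, a lysosomal membrane protein of blood cells, read 5689 and 3709 against 174 and 209 (4.55 ± 0.32, adjusted p = 2.05e-08), and 3 of its 5 probe sets were called higher.

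Only 1 gene was called among the transcription factors and complement subunits. Cebpb read 1176 and 751 in CD41 positive and 584 and 473 in CD41 negative cells (0.83 ± 0.22, adjusted p = 0.00881), a call that was lost without the first CD41 positive array, without the second CD41 negative array and with its other probe set. Cebpa and Irf8, which direct granulocyte and monocyte fates, read at most 141 and 181 on any array and were called in no comparison made here. The C1q chains, which macrophages secrete, were not called. C1qa read at most 11.8 and C1qc at most 8.20 on any of the 16 arrays, and C1qb 65.9 and 48.4 against 36.5 and 16.2, although 1 of its other 2 probe sets was called (2.42, adjusted p = 0.0371).

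**Figure D2:**
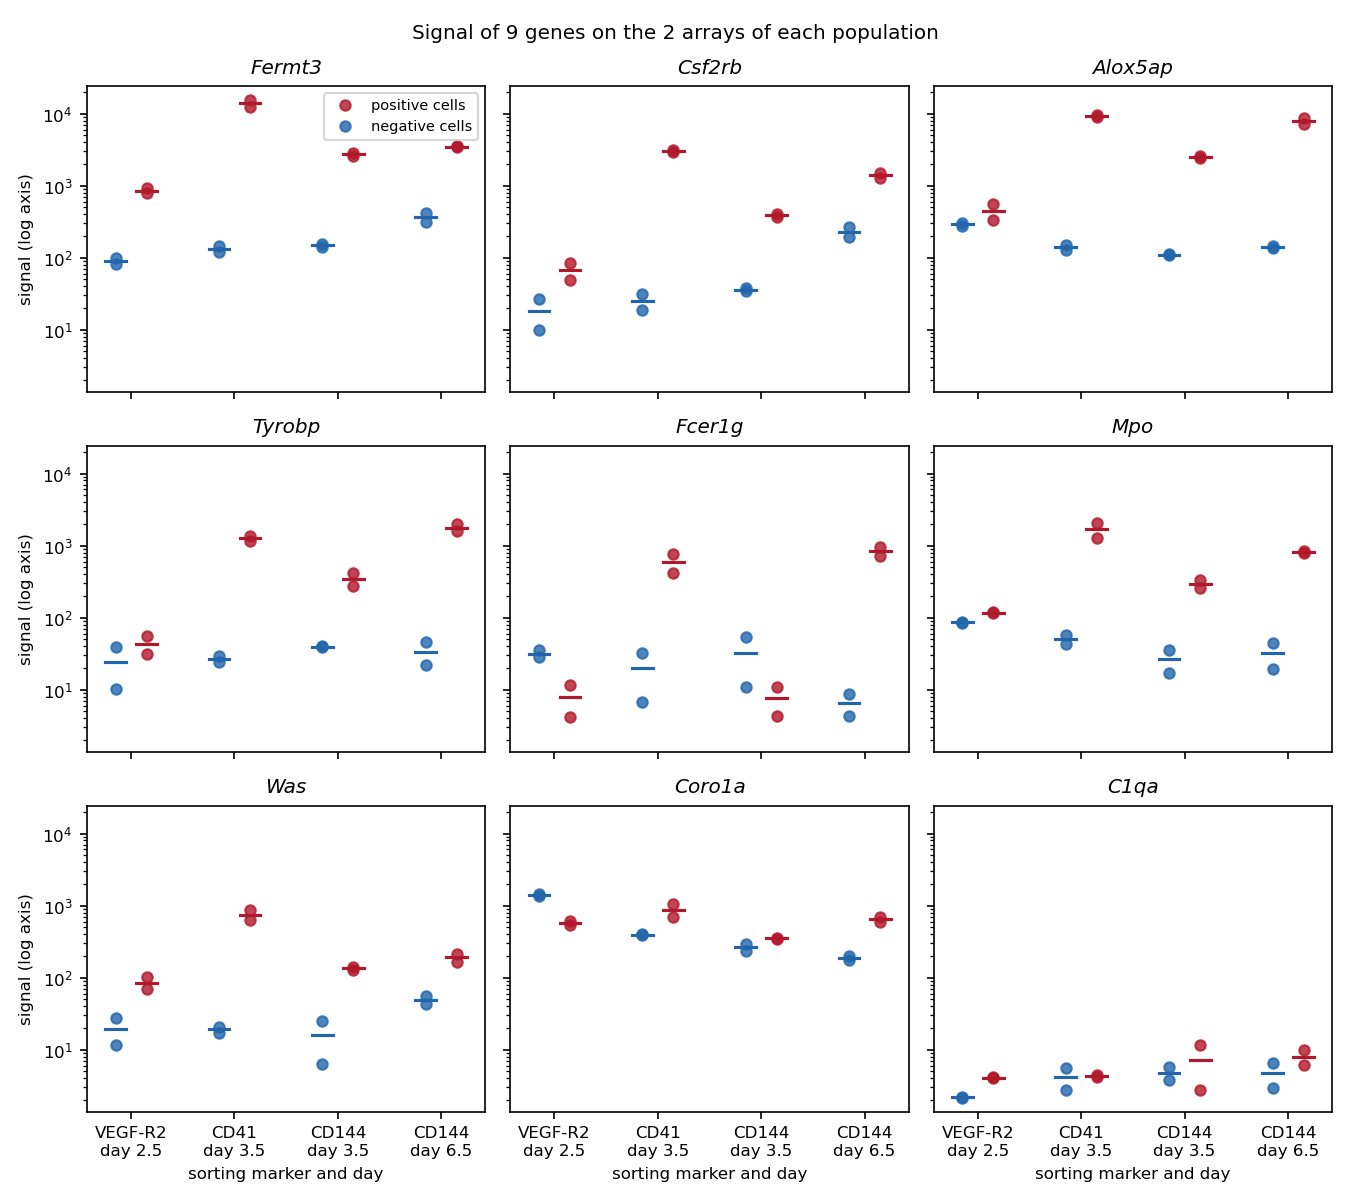
Signal of 9 genes (log axis) by sorting marker and day, with points for the 2 arrays of positive (red) and negative (blue) cells and a line at their mean. Fermt3 peaks in CD41 positive cells (15457 and 12331), Fcer1g is below the array median in CD144 positive cells of day 3.5 (11.0 and 4.25) but at 722 and 943 at day 6.5, Coro1a is highest in VEGF-R2 negative cells (1353 and 1450), and C1qa stays at or below 11.8.

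Other genes were taken from lists that hold none of the 38. Of 29 other myeloid genes, 5 were higher and 2 lower in CD41 positive cells, against 13.5% of all probe sets called higher and 15.8% lower, with a median log2 difference of 0.58. Spi1, which encodes the myeloid factor PU.1, led them at 1731 and 1480 against 41.0 and 64.2 (4.80 ± 0.35, adjusted p = 2.75e-08), followed by Fcgr3, an activating Fc receptor (3.97 ± 0.65), and Lst1 (3.90 ± 0.63). Cd68, a lysosomal glycoprotein of macrophages, was lower, at 189 and 372 against 483 and 593 (-0.99 ± 0.30, adjusted p = 0.0184). Itgal, another integrin alpha chain, was the other gene called lower, at 6.39 and 13.2 against 75.8 and 47.3, all below the array median. Of 25 other leukocyte signalling and surface genes, 14 were higher and 0 lower, against the same 13.5%, with a median of 2.19. Sla, an adaptor that dampens receptor signalling, led these at 7.16 ± 0.66 (adjusted p = 3.98e-07), before Cd93 (5.80 ± 0.38) and the kinase gene Btk (4.55 ± 0.73).

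Markers of other cell types moved in the same sort. All 8 measured erythroid genes were higher in CD41 positive cells, with summed signals of 114746 and 95495 against 636 and 480, led by Hba-x (9.30 ± 0.29). So were 6 of 9 megakaryocyte genes (sums of 18474 and 11793 against 573 and 459), led by Plek (7.83 ± 0.49), and all 10 endothelial genes (8645 and 14848 against 944 and 1007), led by Tie1 (7.71 ± 0.34). The part of these cells in the myeloid and leukocyte signals was not tested. Of 9 mast cell markers 2 were called higher (Kit, 0.99, and Fcer1a, 2.03) and 0 lower, with a median of 0.95. The sum of the 9 was 3072 and 2906 in CD41 positive against 1205 and 1850 in CD41 negative cells. Kit alone of the 9 was above the array median on both CD41 positive arrays, and Cma1 and Hdc read at most 12.6 there. Of 8 lymphocyte markers 3 were called higher (Il7r, 3.46, Cd79a, 2.14, and Cd79b, 1.37) and 0 lower, with a median of 1.18, and 3 were above the array median on both arrays, while Cd4 read 8.60 and 10.3. The sum of the 8 was 643 and 594 against 239 and 175. The part of these cells was not tested either. The 7 macrophage genes had a median difference of 0.63, with Mrc1 called higher and Cd68 lower. Their sum was 710 and 1062 against 777 and 836, of which Cd68 alone made 189 and 372 against 483 and 593. The sum of the 5 granulocyte genes was 2481 and 1663 against 100 and 82, of which Mpo alone made 2085 and 1261 against 42.8 and 56.6. Of these genes Mpo, Prtn3 and Csf3r were called higher, while Elane and Ctsg were not called. The granulocyte genes, and the macrophage genes except Cd68, belong to the genes described above. Their sums therefore restate those signals and are no separate evidence of these cells.

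Set against the VEGF-R2 positive cells of day 2.5, which the study took as the stage before, 16 of the 38 genes were higher in CD41 positive cells and 0 lower. Here 5.02% of all probe sets were called higher and 4.82% lower, and the median difference was 1.44 for the group and 0.06 for all. The comparison lies within the positive arrays, but it joins day and sorting marker, whose parts cannot be told apart. Csf2rb rose from 84.6 and 49.3 to 2908 and 3089 (5.41 ± 0.37, adjusted p = 6.49e-08), Fcer1g from 11.5 and 4.23 to 757 and 412 (5.40 ± 0.73, adjusted p = 0.000107), and Tyrobp from 31.7 and 55.4 to 1352 and 1158 (4.71 ± 0.48, adjusted p = 6.19e-06). Alox5ap (4.42), Fermt3 (4.01), Laptm5 (3.92), Cd52 (3.82) and Mpo (3.72) followed. Csf2ra, not called in the sort, was called here, at 554 and 499 against 270.3 and 244 (1.02 ± 0.23, adjusted p = 0.00896), but its other probe set gave -0.21. In this comparison all 8 erythroid genes (sums of 812 and 1096, then 114746 and 95495) and 6 of 9 megakaryocyte genes (1125 and 1514, then 18474 and 11793) were also higher, while 2 of 10 endothelial genes were higher and 1 lower. Of 9 mast cell markers 2 were higher and 0 lower, with a median of 0.60. Their part was not tested.

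Differences within the group were measured already at day 2.5. In VEGF-R2 positive against VEGF-R2 negative cells 10 genes were higher and 2 lower, where 11.1% of all probe sets were called higher and 13.8% lower, with a median of 0.74 for the group and 0.08 for all. After Fermt3, the called genes were Was (69.0 and 102 against 11.5 and 27.5; 1.89 ± 0.55), Csf2rb (1.63 ± 0.37), Cd52 (1.61 ± 0.45), Lcp2 (1.48 ± 0.48), Rac2 (1.30 ± 0.39), Vav1 (1.15 ± 0.40), Csf1r (1.11 ± 0.31), Cyba (1.10 ± 0.16) and Arhgdib (1.09 ± 0.24). Without the second VEGF-R2 positive array 6 genes were called in all, and 1 gene had a lower 90% bound of its fold above 2. No granule enzyme was called. In the same sort 8 of 10 endothelial genes (sums of 8620 and 11376 against 2260 and 2118), 3 of 8 erythroid genes (812 and 1096 against 531 and 359) and 2 of 9 megakaryocyte genes were higher, and their part was not tested.

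Coro1a and Cebpb ran the other way at day 2.5. Coro1a, which encodes the actin-binding protein coronin 1A of leukocytes, read 531 and 613 in VEGF-R2 positive and 1353 and 1450 in VEGF-R2 negative cells (-1.29 ± 0.21, adjusted p = 0.000209). These were its highest signals in any population, above the 1036 and 694 of CD41 positive cells. In CD144 negative cells of day 6.5 it read 200 and 176, lower than in VEGF-R2 negative cells by 2.86 on the log2 scale (-2.86 ± 0.21, adjusted p = 1.6e-07). Cebpb read 399 and 502 in VEGF-R2 positive and 893 and 993 in VEGF-R2 negative cells (-1.06 ± 0.22, adjusted p = 0.00196).

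The negative cells of day 6.5 lacked CD144 and those of day 2.5 lacked VEGF-R2. A difference between them joins day and sorting marker, whose parts cannot be told apart. In CD144 negative cells of day 6.5 against VEGF-R2 negative cells of day 2.5, 3 genes were higher and 5 lower. Of all probe sets 5.05% were higher and 3.72% lower, and the medians were 0.01 and 0.08. Csf2rb rose from 26.5 and 9.95 to 196 and 263 (3.35 ± 0.37, adjusted p = 1.98e-05), Fermt3 from 98.8 and 82.3 to 308 and 423 (1.93 ± 0.19, adjusted p = 4.82e-06), and Cyba by 1.45. Besides Coro1a, Laptm5 (-1.43), Mpo (-1.36), Lcp1 (-1.32) and Alox5ap (-1.03) were lower. Without the first VEGF-R2 negative array 4 of the 38 genes were called. The erythroid sum was 42295 and 46938 in these CD144 negative cells against 531 and 359 in VEGF-R2 negative cells, and its part in the rise of Csf2rb and Fermt3 was not tested. In the same comparison 8 of 10 endothelial genes were lower and 1 higher, and 4 of 8 genes listed for feeder fibroblasts were higher and 0 lower. Whether signals of that list, here and below, came from feeders or from differentiated cells was not tested. The part of endothelial cells was not tested either.

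CD144, the endothelial marker, also divided cells in which these genes differed. At day 3.5, 17 genes were higher in CD144 positive than in CD144 negative cells and 0 lower, with 9.49% of all probe sets called higher and 10.5% lower, and medians of 1.12 and 0.10. Alox5ap read 2578 and 2410 against 113 and 108 (4.42 ± 0.20, adjusted p = 7.2e-10), Laptm5 565 and 920 against 41.6 and 49.7 (3.82 ± 0.32, adjusted p = 6.23e-07), Arhgdib 1355 and 1093 against 91.5 and 101 (3.58 ± 0.24, adjusted p = 4.98e-08), and Lcp2 384 and 312 against 29.0 and 26.5 (3.38 ± 0.48, adjusted p = 0.000101). In these 4 genes the groups were well apart. Mpo (3.27 ± 0.40) was the only granule enzyme called, while Itgb2, Lyz2, Prtn3 and Ncf4, all called in the CD41 sort, were not called here. Fcer1g read 11.0 and 4.25 in CD144 positive and 11.0 and 53.7 in CD144 negative cells and was below the array median on all 4 arrays. In the same sort all 10 endothelial genes were higher (sums of 15555 and 14355 against 1091 and 852), with 5 of 8 erythroid genes (3354 and 3146 against 1231 and 1012) and 4 of 9 megakaryocyte genes (2877 and 3401 against 440 and 487). Their part was not tested.

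Whether the effect of the CD41 sort exceeded that of the CD144 sort on the same day was tested as a difference of the differences. The negative cells of these sorts differ in VEGF-R2 as well, as given above, and its part cannot be told apart from that of the sorted markers. It was larger for 8 genes and smaller for 0, with 2.20% of all probe sets larger and 3.43% smaller, and medians of 0.98 and 0.00. The 8 were Fcer1g (5.93 ± 1.03, adjusted p = 0.0016, with all 4 arrays of the CD144 sort below the array median), Cd52 (3.45 ± 0.64), Csf2rb (3.40 ± 0.53), Arhgdib (2.51 ± 0.34), Fermt3 (2.48 ± 0.27), Rac2 (2.12 ± 0.55), Alox5ap (1.57 ± 0.29) and Cebpb (1.34 ± 0.31). For Itgb2, Lyz2, Prtn3 and Ncf4 the difference between the sorts was not called.

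Direct comparison of the positive cells of day 3.5 gave 14 genes higher in CD41 positive than in CD144 positive cells and 0 lower, with 3.72% of all probe sets higher and 6.06% lower, and medians of 0.99 and 0.02. Fcer1g (757 and 412 against 11.0 and 4.25) differed by 5.41 ± 0.73 (adjusted p = 0.000105), Itgb2 (967 and 238 against 73.1 and 27.3) by 3.25 ± 0.76 (adjusted p = 0.0104; lost without the first CD41 positive or the second CD144 positive array, range 2.25 to 4.24) and Csf2rb (2908 and 3089 against 405 and 367) by 2.94 ± 0.37 (adjusted p = 5.67e-05). Lcp2, Mrc1, Cyba and Csf2ra, all called in the CD144 sort, were not called here. Erythroid and megakaryocyte markers differed in the same direction, with an erythroid sum of 3354 and 3146 and a megakaryocyte sum of 2877 and 3401 in CD144 positive cells, against 114746 and 95495 and 18474 and 11793 in CD41 positive cells. Of 9 mast cell markers 2 were higher in CD41 positive cells and 0 lower, with a median of -0.26. Their part in the difference was not tested.

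**Figure D3:**
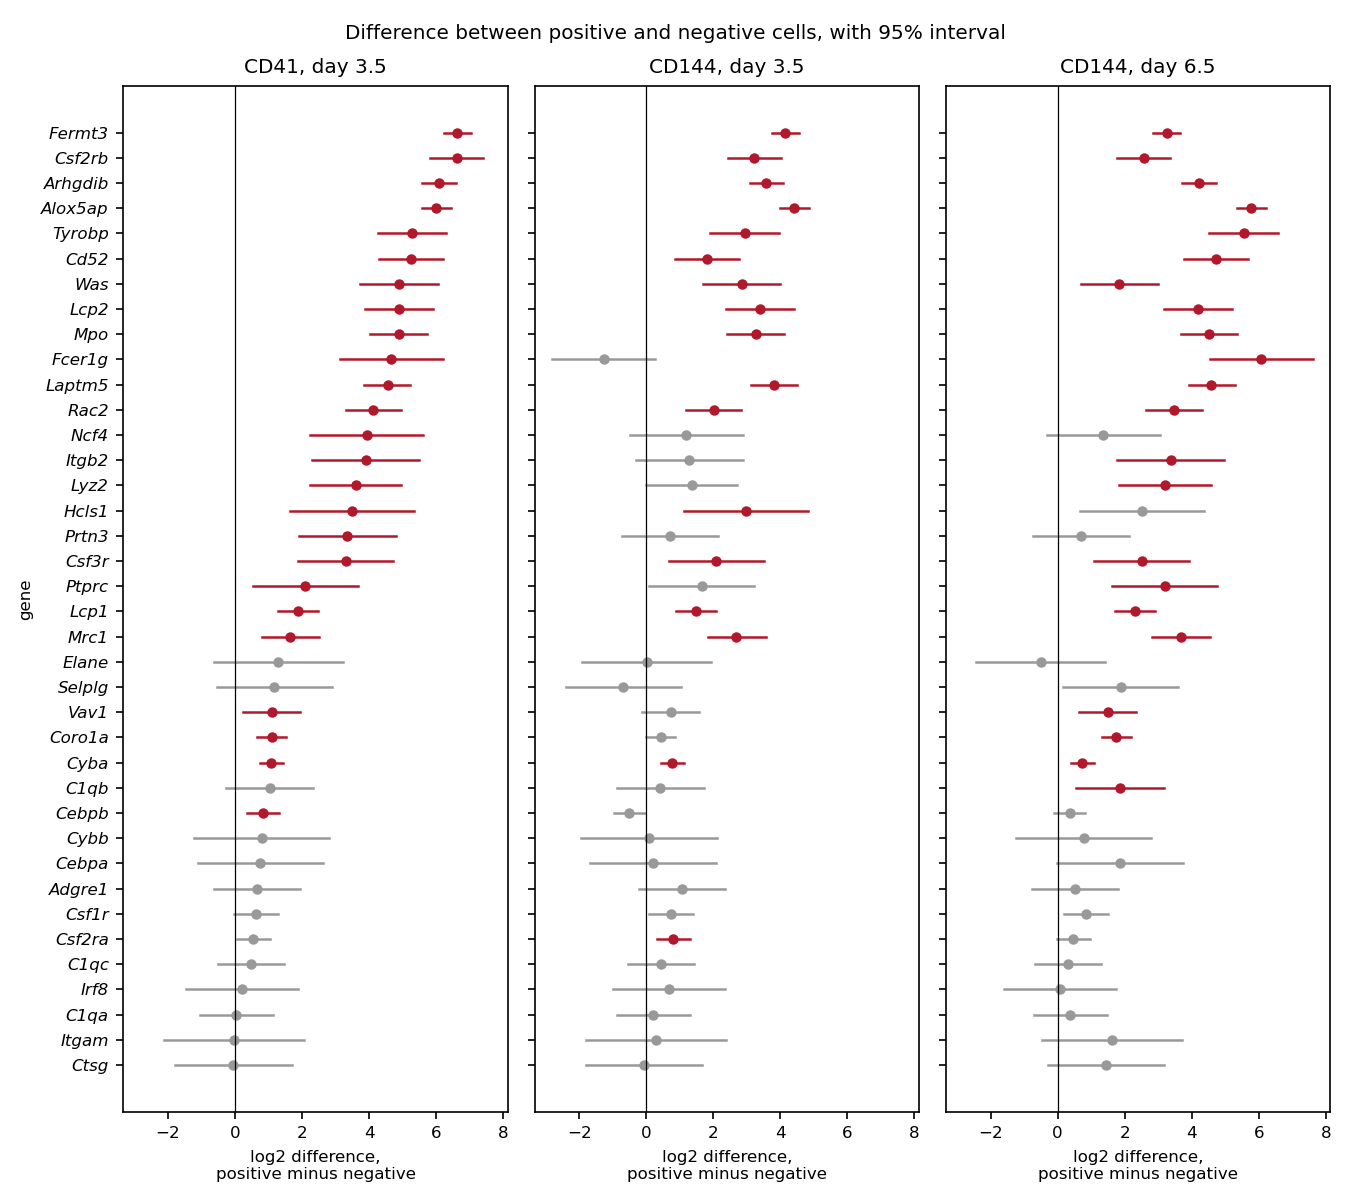
Log2 difference between positive and negative cells, with its 95% interval, for the 38 genes in the sorts by CD41 at day 3.5 and by CD144 at days 3.5 and 6.5. Red marks genes called higher (25, 17 and 22 in turn) and grey those not called. Fcer1g lies at 4.66, -1.27 (not called) and 6.08 in the 3 sorts.

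At day 6.5, 22 genes were higher in CD144 positive than in CD144 negative cells and 0 lower, with 9.42% of all probe sets called higher and 10.1% lower, and medians of 1.87 and 0.07. Fcer1g read 722 and 943 against 4.29 and 8.63 (6.08 ± 0.73, adjusted p = 1.82e-05), Alox5ap 7184 and 8778 against 135 and 143 (5.78 ± 0.20, adjusted p = 7.48e-11), and Tyrobp 1577 and 1971 against 21.7 and 45.3 (5.55 ± 0.48, adjusted p = 6.57e-07). These 3 genes were above the array median on both positive arrays and, except for Alox5ap, below it on both negative arrays. Cd52 (4.73 ± 0.45), Laptm5 (4.59 ± 0.32), Mpo (4.52 ± 0.40), Arhgdib (4.21 ± 0.24) and Lcp2 (4.19 ± 0.48) followed.

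Mrc1 read 866 and 845 in CD144 positive cells of day 6.5, its highest level, against 47.6 and 77.6 in CD144 negative cells (3.69 ± 0.41, adjusted p = 8.15e-06). Lyz2 read 331 and 468 against 30.5 and 45.1 (3.21 ± 0.65, adjusted p = 0.0018), and Ptprc 342 and 166 against 21.8 and 19.5 (3.20 ± 0.74, adjusted p = 0.00526). The other probe set of Ptprc gave 0.36 and was not called (adjusted p = 0.832). C1qb was called in this comparison alone of those made, at 98.1 and 106 against 28.1 and 20.0 (1.86 ± 0.61, adjusted p = 0.0424), a call that was lost in 14 of 25 settings. The other probe sets of C1qb gave 0.98 and 0.11, and neither was called (adjusted p = 0.476 and 0.939). Csf1r, at 269 and 326 against 161 and 163, was not called (0.85, adjusted p = 0.0676), but both its other probe sets were, at 625 and 770 against 89.8 and 89.7 (2.87, adjusted p = 0.00104) and at 182 and 314 against 26.8 and 53.0 (2.48, adjusted p = 0.0135). Of the 7 macrophage genes C1qb and Mrc1 were called higher and 0 lower, with a median of 0.52. Their sum was 2351 and 2549 against 1296 and 1061, of which Cd68, not called, made 1016 and 1079 against 989 and 675. C1qa and C1qc read at or below 9.86. The erythroid sum was 38561 and 47989 against 42295 and 46938, with overlap of the groups, and the megakaryocyte sum was 8936 and 8162 against 653 and 855, with 6 of 9 genes higher. All 10 endothelial genes were higher, with sums of 28130 and 28330 against 1142 and 1208. The part of these cells in the differences was not tested.

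From day 3.5 to day 6.5 of CD144 positive cells, 11 genes were higher and 0 lower, with 3.20% of all probe sets higher and 2.64% lower, and medians of 0.93 and 0.05. Fcer1g rose from 11.0 and 4.25 to 722 and 943 (5.97 ± 0.73, adjusted p = 0.000135), and Alox5ap by 1.67 ± 0.20 (adjusted p = 0.000132). Itgb2 (2.77), Tyrobp (2.35), Cd52 (2.31), Laptm5 (2.00), Csf2rb (1.82), Rac2 (1.54), Mpo (1.46), Arhgdib (1.19) and Coro1a (0.86) were called as well. The count rested on single arrays. It was 4 without the second CD144 positive array of day 3.5 and 5 without either array of day 6.5. Other cell types' genes rose as well: 4 of 8 erythroid (sums of 3354 and 3146 at day 3.5 and 38561 and 47989 at day 6.5), 4 of 9 megakaryocyte (2877 and 3401, then 8936 and 8162), 3 of 10 endothelial (15555 and 14355, then 28130 and 28330) and 6 of 8 feeder fibroblast genes, with 1 lower (1313 and 1192, then 7916 and 6574). Their part was not tested.

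Measured from VEGF-R2 positive cells of day 2.5, CD144 positive cells had 9 genes higher at day 3.5 and 20 at day 6.5, and 0 lower on either day. At day 3.5, 4.87% of all probe sets were called higher and 2.84% lower, and at day 6.5, 9.40% and 6.11%. The medians of the group were 0.68 and 1.61, and those of all probe sets 0.05 and 0.11. Tyrobp led at day 3.5, from 31.7 and 55.4 to 418 and 276 (2.85 ± 0.48, adjusted p = 0.00139), and Fcer1g at day 6.5 (5.95 ± 0.73, adjusted p = 2.97e-05). At day 3.5, 2 of 8 erythroid, 2 of 9 megakaryocyte and 4 of 10 endothelial genes were higher too, and at day 6.5, 6 of 8 erythroid, 6 of 9 megakaryocyte, 7 of 10 endothelial and 4 of 8 feeder fibroblast genes, with 2 of the last lower, and their part was not tested. These comparisons share the VEGF-R2 positive arrays with that of CD41 positive cells, and they too join day and sorting marker.

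The populations in which most genes had their highest signal were set against each other after their levels had been seen. Between CD144 positive cells of day 6.5 and CD41 positive cells of day 3.5, 1 gene was higher and 3 lower, where 8.35% of all probe sets were higher and 5.52% lower, and the medians were -0.06 for the group and 0.04 for all. The comparison joins day and sorting marker, whose parts cannot be told apart. Fermt3 was lower in CD144 positive cells of day 6.5, at 3445 and 3522 against 15457 and 12331 (-1.98 ± 0.19, adjusted p = 2.27e-06). So were Was (215 and 166 against 877 and 624, -1.94 ± 0.55, adjusted p = 0.0241) and Arhgdib (-0.78 ± 0.24, adjusted p = 0.0389). Mrc1 was higher (1.75 ± 0.41, adjusted p = 0.00761). Of 26 other settings the call of Arhgdib was lost in 11, quantile normalization, a floor and a robust prior among them, that of Was in 3, that of Mrc1 in 2 and that of Fermt3 in 0. For the other 34 no difference was called, with intervals that differ in width. That of Alox5ap ran from -0.65 to 0.21 and that of Fcer1g from -0.98 to 2.10. Without the first CD41 positive array 1 of the 38 genes was called, and 2 without the second CD144 positive array of day 6.5. In the same comparison 7 of 8 feeder fibroblast genes were higher, with a median of 3.19 (sums of 7916 and 6574 against 554 and 654), as were 8 of 10 endothelial genes, while 7 of 8 erythroid genes were lower. Their part was not tested. Spi1 was lower by 1.18 on the log2 scale (-1.18 ± 0.35, adjusted p = 0.0319).

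**Figure D4:**
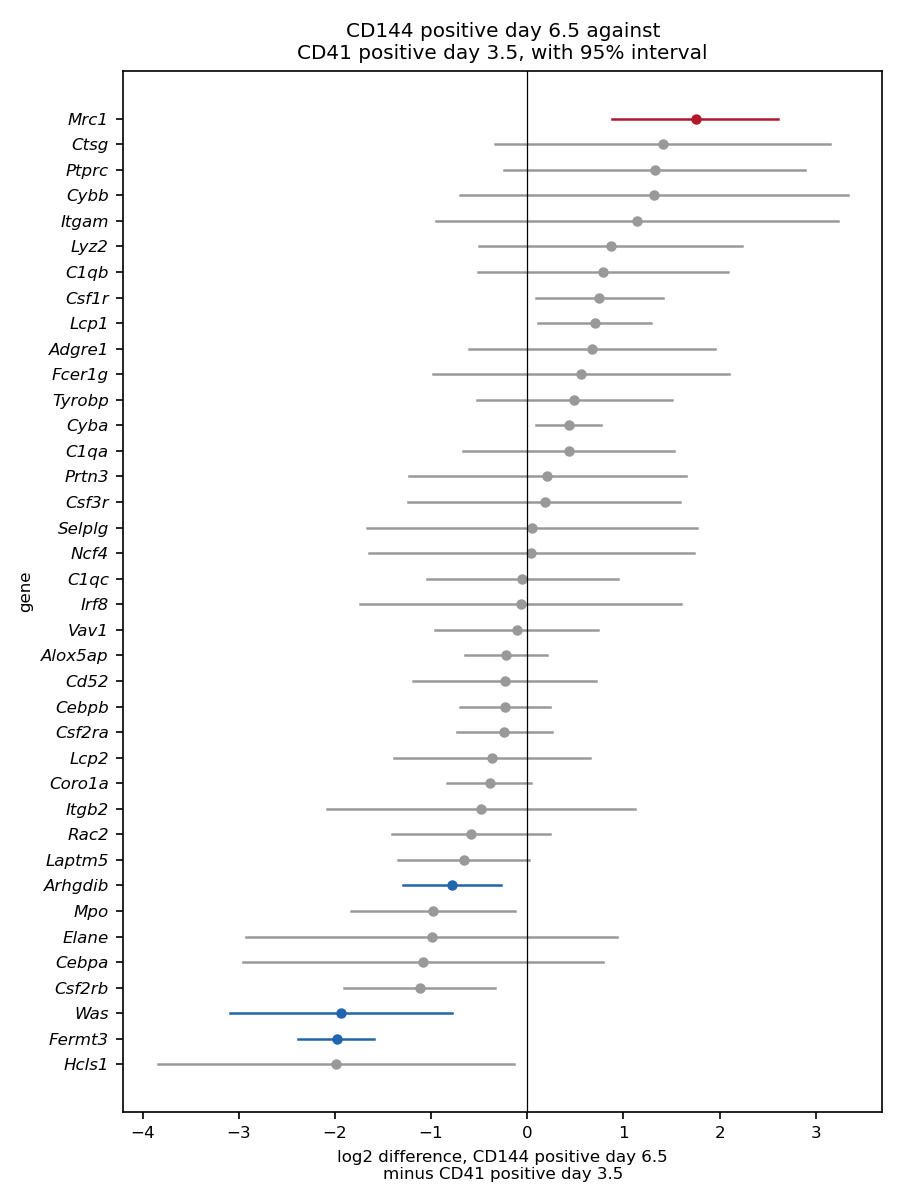
Log2 difference between CD144 positive cells of day 6.5 and CD41 positive cells of day 3.5 for each of the 38 genes, ordered by size, with its 95% interval. Red marks the gene called higher (Mrc1, 1.75), blue those called lower (Fermt3 at -1.98, Was at -1.94, Arhgdib at -0.78) and grey the other 34.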

How the data were processed

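Expression was measured on 16 arrays of 8 sorted populations, grouped by sample titles. The authors computed the deposited intensity values with MAS5 (version not given) and brought every array to the same trimmed mean, which hides any change in total RNA. Of 45101 probe sets, 64 controls were left out. Gene symbols came from the platform annotation (34945 probe sets with 1 symbol, 932 with several, 9160 with none). The 10th percentile of the values, 6.03, was added before log2. All arrays entered 1 fit in limma 3.58.1 under R 4.3.3 with a trend, 8 residual degrees of freedom and Benjamini-Hochberg adjustment, after a test on simulated data. The number of arrays limits the precision. Genes and lists were chosen with earlier results of these data known. Every member may be named; of each other list, at most 3 called genes with the largest CD41 difference, and the sorting markers. Spi1, Cd68, Itgal, Csf2rb2 and single marker genes given for their low signals add to this. Alternatives were quantile normalization, offsets of 16 and 50, a floor of 32, leaving out dim probe sets, fitting the compared groups or positive arrays alone, a robust prior (no trend), a replicate block, a lower 90% bound of the fold above 2, the most variable probe set and leaving out each array. The labels do not say whether same-numbered arrays share a culture, and they were not treated as pairs. Probe sets with an s or x suffix (those shown for Fermt3, Laptm5 and C1qb among them) can bind related transcripts. Figures used matplotlib 3.10.9 under Python 3.11.15.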

Additional observations from a re-analysis of the deposited data

Results flagged for a closer look

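The effect of the CD41 sort and that of the CD144 sort at day 3.5, each positive minus negative on the log2 scale, differed in limma for 8 genes, all larger in the CD41 sort. The difference was 5.93 for Fcer1g, 3.45 for Cd52, 3.40 for Csf2rb, 2.51 for Arhgdib, 2.48 for Fermt3, 2.12 for Rac2, 1.57 for Alox5ap and 1.34 for Cebpb. In the CD41 and CD144 sorts in turn, the values were 4.66 and -1.27 for Fcer1g and 0.83 and -0.51 for Cebpb, and neither negative value was called. All 4 arrays of the CD144 sort were below the array median for Fcer1g and its groups overlapped there, so the -1.27 gives no direction, and the size of its 5.93 depends on it. The negative cells of these sorts differed in VEGF-R2 (Kdr at 53.5 and 95.1 against 1001 and 740). The calls of Rac2 and Cebpb were each lost in 6 settings, that of Csf2rb in 1, and those of the other 5 in none. With 2 arrays in a population, no single array was tested as an outlier.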

How the results depend on the processing

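Of 166 calls of a gene in a comparison, 103 held under every setting run and 3 changed sign, all with the most variable probe set: Csf2ra against VEGF-R2 positive cells (-0.21 in CD41 positive and -0.25 in CD144 positive day 6.5 cells) and Vav1 in the VEGF-R2 sort (-0.04). Counts of called genes moved by over 1.5 times as follows. With the 90% bound they were 7 for CD144 positive day 6.5 against day 3.5 (11 as reported), 4 for CD144 positive day 3.5 against VEGF-R2 positive (9), 1 for the VEGF-R2 sort (12), 4 for the late against the early negative cells (8) and 2 for CD144 positive day 6.5 against CD41 positive (4). A robust prior gave 7 for the change of CD144 positive cells between days, and fitting only the compared groups gave 7 for the VEGF-R2 sort. The causes were not tested. Leaving out each array gave 21 to 26 genes for the CD41 sort, 14 to 17 for CD41 positive against VEGF-R2 positive, 10 to 15 for CD41 positive against CD144 positive, 13 to 17 and 18 to 22 for the CD144 sorts of days 3.5 and 6.5, 4 to 12 for CD144 positive cells between days, 6 to 11 and 14 to 21 for CD144 positive cells of days 3.5 and 6.5 against VEGF-R2 positive, 6 to 13 for the VEGF-R2 sort, 4 to 8 for the negative cells, 6 to 9 for the difference of sorts and 1 to 5 for CD144 positive day 6.5 against CD41 positive. Deviations of same-numbered arrays from their means did not go together (r from -0.05 to 0.05 over 28 pairs of populations). With a replicate block the CD41 sort gave 24 genes, the VEGF-R2 sort 11 and CD144 positive day 6.5 against CD41 positive 5, and the other 9 counts were as reported. The positive arrays alone, chosen after seeing the data, gave 9 to 17 genes in 5 comparisons and 6 for CD144 positive day 6.5 against CD41 positive.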
